A study of Mus musculus with 12 samples.

Results

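Heat-shock proteins and their co-chaperones were followed here in the mouse heart, in 2 models that express the human NOTCH2NLC gene with 98 GGC repeats. The members were all loci of the count table whose symbol starts with Hspa, Hspb, Hspd1, Hspe1, Hsph1, Hsp90, Dnaj, Cct and a digit, or Bag and a digit, together with Cryab. This gave 89 of 25171 loci. By family they were 8 small heat-shock proteins, 11 HSP70 proteins, 3 HSP110 proteins, 3 HSP90 proteins, 45 DNAJ proteins (4 DNAJA, 13 DNAJB and 28 DNAJC), 8 subunits or relatives of the cytosolic chaperonin CCT, the 2 mitochondrial chaperonin genes, 6 BAG proteins and 3 further matches (Hspb11, Hspbap1 and Hspbp1). Cct6a was not analysed here.

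Chaperones bind unfolded or misfolded proteins. Small heat-shock proteins hold such proteins without using ATP, the HSP70 and HSP90 machines refold them in cycles of ATP hydrolysis, and chaperonins enclose them in a ring-shaped chamber. DNAJ co-chaperones deliver clients to HSP70 and start its ATPase, while HSP110 and BAG proteins release the nucleotide again. Many of the cytosolic genes are switched on by heat-shock factor HSF1 when unfolded proteins build up. In the heart, which carries a high load of sarcomere protein, the small heat-shock proteins are abundant, and mutations of CRYAB and BAG3 cause cardiomyopathy in people.

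RNA was sequenced from 12 hearts, 3 per group. EIIa-tg mice carried the conditional loxP-stop-loxP transgene at the Rosa26 site together with EIIa-Cre, which removes the stop cassette throughout the body, and their controls (EIIa-ctl) were littermates with the conditional transgene but no Cre. Both were collected on postnatal day 30 (P30). Myh6-tg mice carried the same transgene with Myh6-creERT2, a Cre driven by the cardiomyocyte promoter of alpha-myosin heavy chain that needs tamoxifen, and received 3 injections of tamoxifen at 75 mg/kg from P60. Their controls (Myh6-ctl) bear the same genotype label and were injected with corn oil, and both were collected at P90. Each mouse had a parent homozygous for the conditional transgene. The genotype entries of EIIa-tg replicates 2 and 3 differ from that of replicate 1 by a running number, and the titles were used for the groups. In the Myh6 model the drug and the transgene therefore cannot be told apart, and neither can the difference in Esr1 reads given below. The models differ in age, Cre line and injections.

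The libraries held 38343106 to 50969834 counts, of which the members took 1.09% to 2.71%. In CPM, which are counts scaled to a common library size, a count of 3 corresponded to 0.0589 to 0.0782, and 78 of the 89 members had more than 3 counts in every heart. Hspb9, Dnajb7, Dnajb8, Dnajc22, Dnajc5b, Dnajc5g and Cct8l1 passed the filter on low counts in no comparison, and Dnajb8 had 0 counts in every heart. The cardiomyocyte genes Myh6, Tnnt2 and Actn2 were abundant in every library, as the tissue label states. Replicate 1 of each group held 4224 to 7307 reads of Y-linked genes and the other hearts held 0 to 2. Esr1, whose ligand-binding part is a component of creERT2, stood at 1030 to 2330 CPM in the Myh6-ctl hearts and at 1.00 to 2.52 CPM in the Myh6-tg hearts (log2 fold change -9.94, adjusted p = 0.000845), against what a shared genotype label implies. The libraries are named by their labels throughout.

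Levels are given as CPM scaled by the trimmed mean of M values (TMM) over all 12 hearts, in the order of replicates 1, 2 and 3, and follow one gene between hearts. Where genes are compared with each other, the authors' FPKM values (fragments per kilobase of transcript, scaled to library size) are used, because they are divided by transcript length. Fold changes are log2 values with standard errors from edgeR's quasi-likelihood test with 3 hearts per group, adjusted over all genes by the method of Benjamini and Hochberg, and a gene was called at an adjusted p under 0.05.

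Of the 80 members tested in the EIIa model, 15 were called, 10 higher and 5 lower, which is 18.8%. Over all 14908 genes tested the share was 17.0% (8.65% higher and 8.30% lower), so the members as a group were called about as often as any gene. In the Myh6 model 15 of 79 members were called, 8 higher and 7 lower, or 19.0% against 18.3% of 15298 genes (8.96% higher and 9.38% lower). The median log2 fold change over members was -0.01 in the EIIa model and 0.02 in the Myh6 model, beside 0.02 and 0.03 over all genes. By the stricter rule of an adjusted p under 0.01 and at least 2-fold, no member was called in the EIIa model, where 0% of genes were (0 by edgeR's quasi-likelihood test, beside 15 members at an adjusted p under 0.05), and 2 were called in the Myh6 model, Hspd1 and Dnaja3, where 3.97% of genes were. DESeq2 called 4 members by that rule in the EIIa model, beside 4.25% of genes, and 10 in the Myh6 model, beside 10.7%, of 87 members tested in each. At an adjusted p under 0.05 DESeq2 called 21 of 87 members in the EIIa model, beside 3491 of 19471 genes. It called 18 of 87 in the Myh6 model, beside 3870 of 20011 genes. Groups that did not overlap were seen in 22 members higher and 22 lower of 80 in the EIIa model (20.3% and 20.8% of all genes) and in 16 higher and 19 lower of 79 in the Myh6 model (20.6% and 19.6%). On the FPKM scale, where the median over all genes itself shifted by 0.16 in the EIIa model and 0.34 in the Myh6 model, limma called 22 of 78 members higher and 3 lower in the EIIa model, where 18.6% of genes were higher and 5.26% lower. It called 24 of 78 members higher and 6 lower in the Myh6 model, beside 25.7% and 6.95% of genes. With the replicate number as a block, 12 members of 79 were called higher and 10 lower in the Myh6 model, beside 9.76% and 11.2% of genes. The 15 were all among them, and Hspa12b and Dnajc12, named after their values were seen, were lower there and are not treated further. In the EIIa model the same block gave 0 of 80 members, beside 1 of 14908 genes. The labels state no pairing, and the block was chosen for the Myh6 model from these same values. Block results below are therefore no independent support. The counts by family below are to be read beside the all-gene shares given here.

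The EIIa count changed with the heart left out. Leaving out 1 heart gave 0 called members without EIIa-ctl replicate 1, EIIa-ctl replicate 3 or EIIa-tg replicate 1, 1 without EIIa-tg replicate 3, 12 without EIIa-ctl replicate 2 and 27 without EIIa-tg replicate 2, while all genes called went from 2527 to between 0 and 4079. In the fits with 0 called members, 24 or 25 of 81 to 83 members had an unadjusted p under 0.05, beside 4018 to 4173 of 15194 to 15380 genes. In the Myh6 model the count was 2 without Myh6-ctl replicate 1, 6 without Myh6-ctl replicate 3, 3 without either Myh6-tg replicate 2 or 3, 13 without Myh6-ctl replicate 2 and 23 without Myh6-tg replicate 1, while all genes called went from 2805 to between 798 and 4269. Hspd1 and Dnaja3 were called in each of these Myh6 fits but the other 13 were not, and no member was called in each of the EIIa fits. With hearts 2 and 3 of each group alone, the count was 0 in the EIIa model, where 0 of 15030 genes passed. There 19 of 80 members had an unadjusted p under 0.05, beside 2824 of 15030 genes. In the Myh6 model 19 of 81 members were called, 12 of them shared with the 15, beside 3320 of 15709 genes.

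Small heat-shock proteins made up 5 of the 10 members that rose in the EIIa model and 2 of the 8 that rose in the Myh6 model. Per length, Cryab was the most abundant member in the EIIa-ctl hearts at 1045 ± 144 FPKM (SD, n = 3), followed by Hspb7 at 549 ± 24.9 FPKM, Hspa8 at 519 ± 41.7 FPKM and Hspb6 at 514 ± 60.3 FPKM, and the last 3 did not differ beyond their spread. Of the 7 family members tested in the EIIa model, 5 rose (71.4%, beside 8.65% of all genes higher) and none fell, with a median log2 fold change of 0.72. In the Myh6 model 2 of 7 rose (28.6%, beside 8.96% of all genes higher) and none fell. The median there was 0.80, with 5 positive fold changes and 2 negative ones (Hspb3 and Hspb6). On the FPKM scale the medians were 0.91 and 1.21.

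Hspb1, also known as HSP27, a stress-inducible holdase that binds actin filaments, had the largest increase of the called members in both models. It lies at chr5:135887919-135889563, plus strand (GRCm38, GENCODE M21). Its CPM values were 197, 276 and 209.8 in EIIa-ctl and 991, 581 and 1499.6 in EIIa-tg hearts, with no overlap. The log2 fold change came to 2.16 ± 0.31, or 4.48-fold (adjusted p = 0.0157). For the Myh6 model the values were 249.6, 1063 and 398 in controls and 1189, 3484 and 2881 in transgenic hearts. The second Myh6-ctl heart stood above the other controls and close to the first Myh6-tg heart, and the groups still did not overlap. The log2 fold change was 2.14 ± 0.62 (adjusted p = 0.0479), and 0.0048 with the replicate number as a block.

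Cryab encodes alphaB-crystallin, which guards desmin filaments. It was at 994, 1173 and 1100.2 CPM in the EIIa-ctl hearts and 2274, 1638 and 2534 CPM in the EIIa-tg hearts, so that every transgenic heart was above every control, and its log2 fold change was 0.98 ± 0.18 (adjusted p = 0.0183). In Myh6-ctl hearts it was at 1184, 2747 and 1161 CPM and in Myh6-tg hearts at 2388, 3718 and 2779 CPM. There the groups overlapped through the second control, the same heart that was high for Hspb1. The difference of 0.80 ± 0.40 did not pass (adjusted p = 0.202). With the replicate number as a block, a pairing that the labels do not state, the adjusted p was 0.0448.

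Hspb2, a muscle protein that forms complexes with Hspb3, lies head to head with Cryab. Hspb2 is at chr9:50751078-50752354, minus strand, and Cryab at chr9:50751325-50756636, plus strand. Their exons overlap, and because the library kit does not keep the strand, reads in the overlap cannot be told apart. Hspb2 stood at 49.2, 65.2 and 51.9 CPM in the EIIa-ctl hearts and 80.5, 87.1 and 111 CPM in the EIIa-tg hearts, and the log2 fold change came to 0.74 ± 0.15 (adjusted p = 0.0222). The Myh6-ctl values were 39.5, 78.9 and 43.0 CPM and the Myh6-tg values 150.4, 163 and 121 CPM, and the log2 fold change came to 1.43 ± 0.30 (adjusted p = 0.017). In neither model did the groups overlap.

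Hspb7, a cardiac small heat-shock protein that binds filamin C, was at 1699.8, 1719 and 1745 CPM in the EIIa-ctl hearts and 2950.3, 2436 and 3147 CPM in the EIIa-tg hearts, with no overlap (log2 fold change 0.72 ± 0.14, adjusted p = 0.0212). For the Myh6 model it went from 1893, 2715 and 2116 CPM to 5426, 3553 and 2605 CPM, with overlapping groups and a difference of 0.78 ± 0.34 that did not pass (adjusted p = 0.148). Hspb6, the phosphorylated HSP20 of muscle, was at 753, 862 and 760.3 CPM in the EIIa-ctl hearts and 1124, 1117 and 1408 CPM in the EIIa-tg hearts (log2 fold change 0.62 ± 0.14, adjusted p = 0.0261). Its exons overlap those of Lin37 and Proser3 on the other strand. In Myh6-tg hearts Hspb6 ranged from 284 to 1005 CPM, around a difference of -0.49 ± 0.47 (adjusted p = 0.505). The difference between the models was -1.11 ± 0.53 (adjusted p = 0.275), so a difference in response was not shown.

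Hspb8, the partner of Bag3 in selective autophagy, stood at 438, 644 and 366 CPM in Myh6-ctl and 501, 1142 and 980.5 CPM in Myh6-tg hearts. Transgenic hearts 2 and 3 were above every control and the first was not, and neither this difference of 0.86 ± 0.36 nor that of 0.17 ± 0.12 in the EIIa model passed (adjusted p = 0.138 and 0.364). Hspb3 was at 4.37 to 9.92 CPM over all hearts, with differences of -0.08 and -0.30 that did not pass. Hspb9, a testis gene, was at 0 to 0.21 CPM and was not tested.

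**Figure D1:**
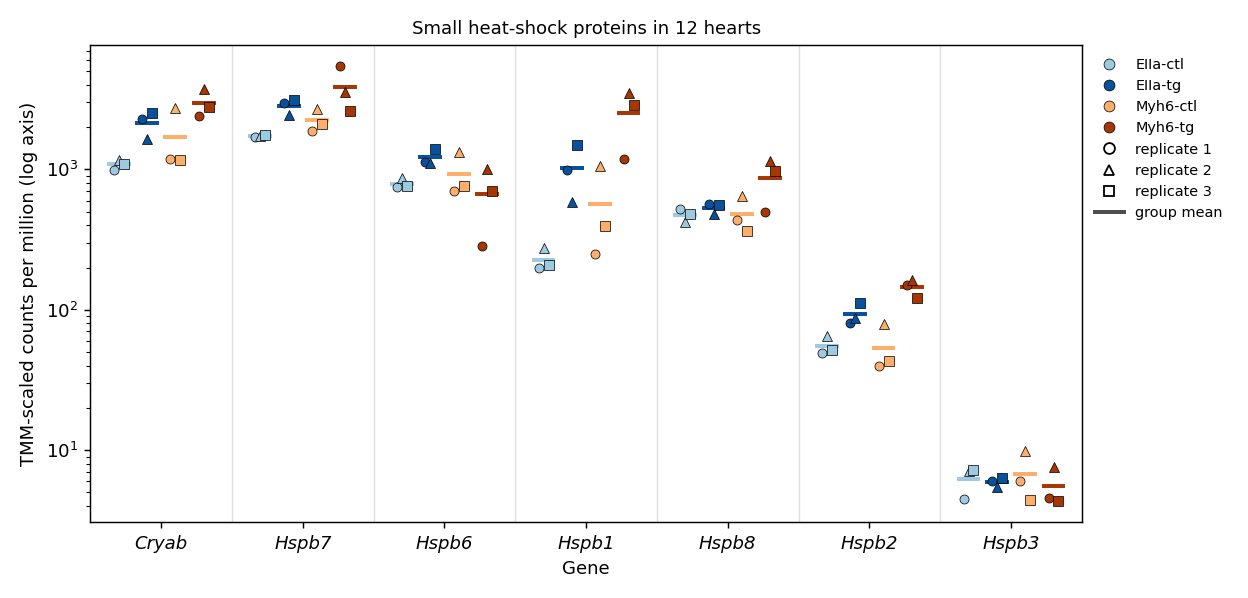
TMM-scaled CPM (log axis) of 7 small heat-shock protein genes in each of the 12 hearts. Colours mark the groups, symbols the replicate number and bars the group means; Hspb1 lies between 197 and 276 in EIIa-ctl hearts and between 581 and 1500 in EIIa-tg hearts, and the second Myh6-ctl heart lies above the other 2 controls for every gene shown.

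The HSP70 family was mixed, with 1 member higher and 1 lower of 11 tested in each model. The same members were called in both: Hspa1l rose and Hspa12a fell. Hspa1l, a constitutive HSP70 best known from testis, was at 7.95, 8.52 and 5.52 CPM in the EIIa-ctl hearts and 17.5, 13.7 and 19.3 CPM in the EIIa-tg hearts (log2 fold change 1.19 ± 0.20, adjusted p = 0.0166). For the Myh6 model it was at 9.97, 15.1 and 15.9 CPM in controls and 27.2, 33.1 and 27.7 CPM in transgenic hearts (log2 fold change 1.10 ± 0.22, adjusted p = 0.0161). The groups did not overlap in either model, at levels that reached at most 15.8 FPKM. Hspa1l is at chr17:34972703-34979285, plus strand.

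Hspa12a, an atypical HSP70, stood at 27.9, 24.5 and 26.2 CPM in the EIIa-ctl hearts and 18.5, 18.8 and 14.8 CPM in the EIIa-tg hearts (log2 fold change -0.60 ± 0.13, adjusted p = 0.0242). Between Myh6-ctl hearts at 26.7, 16.2 and 19.4 CPM and Myh6-tg hearts at 5.06, 9.46 and 9.38 CPM the log2 fold change was -1.38 ± 0.31 (adjusted p = 0.0213). All transgenic hearts were below all controls of their model. Eno4 overlaps Hspa12a on the other strand.

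The stress-inducible pair Hspa1a and Hspa1b varied several-fold between hearts of one group. These near-identical copies may have shared reads, so each value is uncertain. Hspa1a was at 44.1, 12.3 and 9.21 CPM in the EIIa controls, 37.7, 26.5 and 62.8 CPM in EIIa-tg, 9.11, 76.5 and 63.6 CPM in Myh6-ctl and 15.8, 156 and 128 CPM in Myh6-tg hearts. In both Myh6 groups replicate 1 was lowest, several-fold below the other hearts. The differences were 0.94 ± 0.56 and 1.01 ± 0.90 (adjusted p = 0.266 and 0.47), and the Myh6 difference of Hspa1a passed once the replicate number was a block (adjusted p = 0.0112). Hspa1b went the same way, with differences of 1.01 ± 0.49 and 1.09 ± 0.97 (adjusted p = 0.186 and 0.471; 0.0258 with the block in the Myh6 model).

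Hspa8, the constitutive HSC70 and the most abundant HSP70 at 470 to 1104 FPKM, did not pass in either model (0.22 and 0.05). The EIIa-tg hearts nevertheless lay at 1706, 1632 and 1591 CPM, all above the EIIa-ctl hearts at 1519, 1415 and 1287 CPM. Hspa5, the chaperone BiP of the endoplasmic reticulum, was lower in all EIIa-tg than in all EIIa-ctl hearts without passing (-0.34 ± 0.12, adjusted p = 0.0929), and its Myh6 groups overlapped (-0.27). DESeq2 called Hspa5 lower in the EIIa model. Hspa2 differed by -0.40 and 0.15 and did not pass.

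Among the 3 HSP110 proteins, which exchange the nucleotide of HSP70, Hspa4l was lower in EIIa-tg hearts and none was called in the Myh6 model. It was at 44.8, 36.6 and 41.9 CPM in the EIIa-ctl hearts and 24.4, 33.3 and 24.3 CPM in the EIIa-tg hearts (log2 fold change -0.59 ± 0.15, adjusted p = 0.0367), and its difference of -0.50 ± 0.22 in the Myh6 model did not pass (adjusted p = 0.146). Hsph1, the heat-inducible HSP105, was at 72.9, 105 and 112 CPM in Myh6-ctl and 12.4, 68.6 and 69.8 CPM in Myh6-tg hearts. All transgenic hearts were below all controls, but replicate 1 of Myh6-tg stood far below the others and the difference of -0.94 ± 0.56 did not pass (adjusted p = 0.278). Hspa4 was lower in all EIIa-tg hearts (-0.15) and higher in all Myh6-tg hearts (0.40) than in their controls, and neither passed.

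Of the HSP90 genes, the stress-inducible cytosolic form Hsp90aa1 rose in the EIIa model, while the constitutive Hsp90ab1 did not pass in either. Hsp90aa1 was at 148, 143 and 107 CPM in the EIIa-ctl hearts and 271, 226 and 391 CPM in the EIIa-tg hearts, with no overlap (log2 fold change 1.15 ± 0.21, adjusted p = 0.018). Its Myh6-ctl values were 183, 317 and 291 CPM and its Myh6-tg values 222, 769.9 and 884 CPM. As for Hspa1a, replicate 1 was the lowest heart of each Myh6 group, and Myh6-tg replicate 1 lay within the control range. The difference of 1.25 ± 0.49 did not pass (adjusted p = 0.116), and the adjusted p was 0.0465 with the block. DESeq2 called Hsp90aa1 higher in the Myh6 model, and the edgeR fit of all 12 hearts called it too.

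Hsp90ab1 was at 399 to 574 FPKM over all hearts, with differences of 0.07 ± 0.11 and -0.27 ± 0.21 (adjusted p = 0.709 and 0.403). Hsp90b1, the GRP94 of the endoplasmic reticulum, was lower in every transgenic heart than in every control of its model, at differences of -0.24 and -0.49 that did not pass (adjusted p = 0.145 and 0.14).

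**Figure D2:**
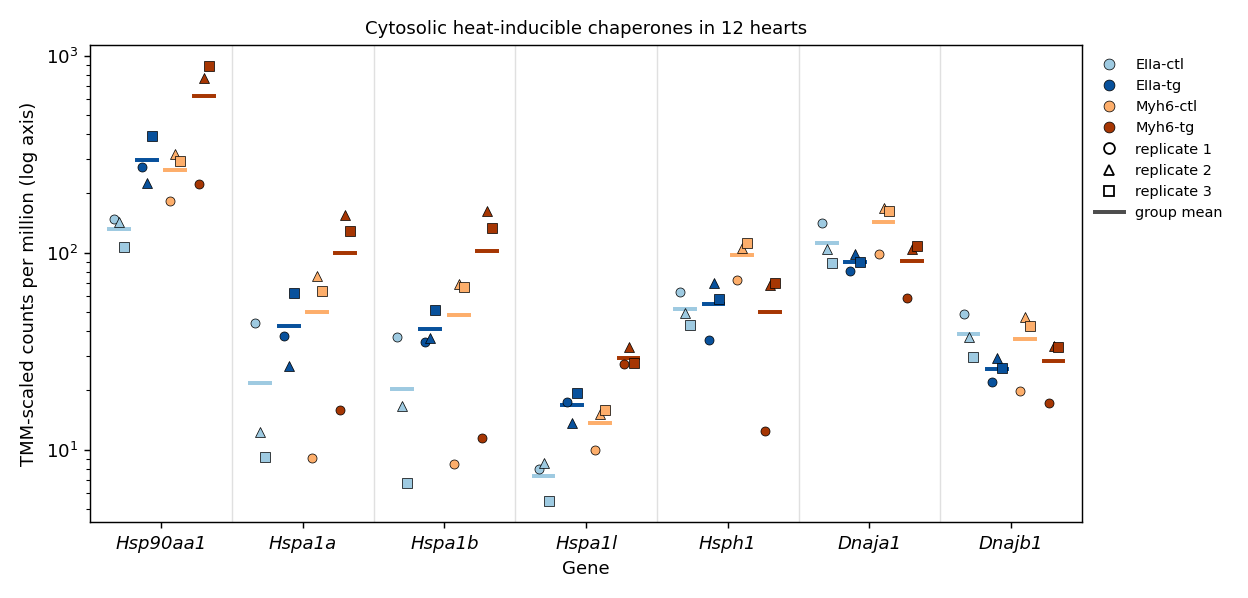
TMM-scaled CPM (log axis) of 7 cytosolic chaperone genes, most of them heat-inducible, in each of the 12 hearts. Colours mark the groups, symbols the replicate number and bars the group means; replicate 1, shown as circles, is the lowest Myh6-tg heart for every gene, and Hspa1a spans 15.8 to 156 within the Myh6-tg group.

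The mitochondrial members all had negative fold changes in both models. The list held Hspa9, Hspd1, Hspe1, Dnaja3, Dnajc11, Dnajc15, Dnajc19, Dnajc28 and Dnajc30. For the Myh6 model 5 of the 9 fell (55.6%, beside 9.38% of all genes lower), none rose, and the median log2 fold change was -1.12. In the EIIa model 2 of 9 fell (22.2%, beside 8.30%), none rose, and the median was -0.30. DESeq2 called 5 of the 9 lower in the Myh6 model and 4 in the EIIa model. In Myh6-tg hearts the share of reads from the mitochondrial genome was also lower, 15.5% to 18.6% beside 31.8% to 38.3% in Myh6-ctl hearts. In EIIa-tg hearts it was 28.5% to 32.3%, beside 34.2% to 36.7% in EIIa-ctl hearts. With the genes of the mitochondrial genome removed before scaling, the median over the list was -1.15 in the Myh6 model and -0.30 in the EIIa model. On the FPKM scale the medians were -0.10 in the EIIa model and -0.75 in the Myh6 model. Markers of cardiomyocytes, the cell type richest in mitochondria, were in part lower as well: 5 of 8 fell (Myh6, Myl2, Myl3, Pln and Tnni3), Actn2, Tnnt2 and Ryr2 differed by 0.58, 0.44 and -0.28 without passing (adjusted p = 0.214, 0.559 and 0.79), and the summed level of the 8 was 7007 to 20912 CPM in Myh6-tg and 25662 to 31349 CPM in Myh6-ctl hearts. Their part in the result was not tested. In these bulk samples, fewer cells of a type and less RNA per cell cannot be told apart.

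Hspd1, the ring-forming HSP60, was at 370.2, 325 and 314 CPM in Myh6-ctl and 106, 121 and 105 CPM in Myh6-tg hearts. The groups lay far apart with little spread within either, and the log2 fold change was -1.61 ± 0.18, 3.04-fold lower (adjusted p = 0.0032). It was called in each of the 6 fits that left out 1 heart. In the EIIa model its values were 397, 352 and 367 CPM in controls and 313, 317 and 251 CPM in transgenic hearts, also with no overlap, but the difference of -0.35 ± 0.12 did not pass (adjusted p = 0.0863). DESeq2 called Hspd1 lower there. Hspe1, the HSP10 lid of the same chamber, fell from 46.9, 73.6 and 43.7 CPM in Myh6-ctl to 19.7, 27.7 and 24.3 CPM in Myh6-tg hearts (log2 fold change -1.20 ± 0.25, adjusted p = 0.0177). Its EIIa difference of -0.30 ± 0.11 did not pass (adjusted p = 0.0868). Per length, Hspd1 went from 124 ± 13.9 FPKM in Myh6-ctl to 54.3 ± 6.26 FPKM in Myh6-tg hearts, and Hspe1 from 62.0 ± 13.2 FPKM to 36.5 ± 8.17 FPKM (SD, n = 3).

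Hspd1 and Hspe1 are read in opposite directions from neighbouring starts, Hspd1 at chr1:55077835-55088243, minus strand and Hspe1 at chr1:55088132-55091307, plus strand. Their exons overlap in that annotation, so reads there cannot be told apart. The heat-shock element, which HSF1 binds, is built from inverted repeats of GAA with 2 free letters between them. Promoter windows of 250 bases before to 50 bases after each start, from RefSeq on GRCm38.p6, were searched on both strands for 3 units (GAANNTTCNNGAA or TTCNNGAANNTTC) and for 2 units (GAANNTTC or TTCNNGAA), hits that overlapped being joined. A window was given for 72 of the 89 members. Of these 72 genes, 4 held 3 units or more (5.56%, beside 0.662% of all 27025 genes in the table and 0.603% of all windows): Hspd1, Hspe1, Dnajb6 and Hsph1. The 4 are printed 5′ to 3′ on the strand of each gene with the units in capitals, since they carry the longest elements, and Hspb1 and the Hspa1a and Hspa1b pair are shown beside them, a choice made after the search among several members with 2 units.
Hspd1: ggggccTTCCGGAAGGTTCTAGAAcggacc
Hspe1: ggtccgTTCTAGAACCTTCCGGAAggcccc
Dnajb6: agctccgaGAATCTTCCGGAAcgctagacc
Hsph1: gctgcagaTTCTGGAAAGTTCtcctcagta
Hspb1 upstream: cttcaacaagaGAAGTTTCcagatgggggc
Hspb1 downstream: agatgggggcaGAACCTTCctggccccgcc
Hspa1a: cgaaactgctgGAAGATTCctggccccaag
Hspa1b: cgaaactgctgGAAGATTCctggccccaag

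The Hspd1 and Hspe1 letters are the same 4-unit site at chr1:55088053-55088082 read from either strand, before both RefSeq starts but inside the span of Hspd1 in GENCODE. The Dnajb6 site is at chr5:29735844-29735873, the Hsph1 site at chr5:149636279-149636308 after the annotated start, the Hspb1 sites at chr5:135887791-135887820 and chr5:135887811-135887840, and the Hspa1a and Hspa1b sites, alike in all 30 letters shown, at chr17:34972242-34972271 and chr17:34959324-34959353. Elements of 2 units or more were in 20 of the 72 members (27.8%) and in 17.0% of all genes. Members with and without such an element were called in both directions. Of 18 tested members with an element, 2 rose and none fell in the EIIa model, and 3 rose and 3 fell in the Myh6 model. Of those without one, 5 rose and 5 fell of 47 in the EIIa model, and 4 rose and 4 fell of 46 in the Myh6 model. Members with no window are in neither count. Among them were Cryab, Hspb2 and Hsp90aa1, which rose in the EIIa model, and Hspa8, Hsp90ab1 and Hspa9. Hspb2 also rose in the Myh6 model. The members with the longest elements did not move one way in Myh6-tg hearts: Dnajb6 rose, Hspd1 and Hspe1 fell, and Hsph1 did not pass. These letters are a description of the window and were not tested for binding.

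Dnaja3, the mitochondrial DNAJ protein TID1, fell in both models. It was at 127, 115 and 129 CPM in the EIIa-ctl hearts and 78.0, 94.1 and 62.3 CPM in the EIIa-tg hearts (log2 fold change -0.66 ± 0.15, adjusted p = 0.027). The Myh6-ctl hearts stood at 119.6, 91.5 and 84.1 CPM and the Myh6-tg hearts at 39.0, 37.7 and 35.9 CPM (log2 fold change -1.39 ± 0.19, adjusted p = 0.00502). The Myh6-tg hearts lay close together, far below the controls, and the call held in each of the 6 fits that left out 1 heart. Vasn, on the same strand, and Coro7, on the other, share exon bases with Dnaja3.

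Dnajc28 had the largest decrease of the called members in both models. It went from 41.9, 31.9 and 39.2 CPM to 16.3, 25.3 and 11.0 CPM in the EIIa model (log2 fold change -1.11 ± 0.27, adjusted p = 0.0331) and from 38.4, 18.5 and 22.6 CPM to 9.58, 3.75 and 4.86 CPM in the Myh6 model (log2 fold change -2.13 ± 0.42, adjusted p = 0.0149). Dnajc15, which sits in the inner mitochondrial membrane near the import motor, fell from 49.7, 60.3 and 43.4 CPM in Myh6-ctl to 27.2, 25.6 and 18.0 CPM in Myh6-tg hearts (log2 fold change -1.12 ± 0.22, adjusted p = 0.0149), while its EIIa difference of -0.28 ± 0.12 did not pass (adjusted p = 0.151). Hspa9, the mitochondrial HSP70 mortalin, was lower in every transgenic heart than in every control of its model without passing in either (-0.45 and -0.45, adjusted p = 0.0567 and 0.176). DESeq2 called Hspa9 lower in the EIIa model. Its 110.7 to 170 FPKM made it the most abundant mitochondrial member in the EIIa-ctl hearts by mean, next to Hspd1.

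**Figure D3:**
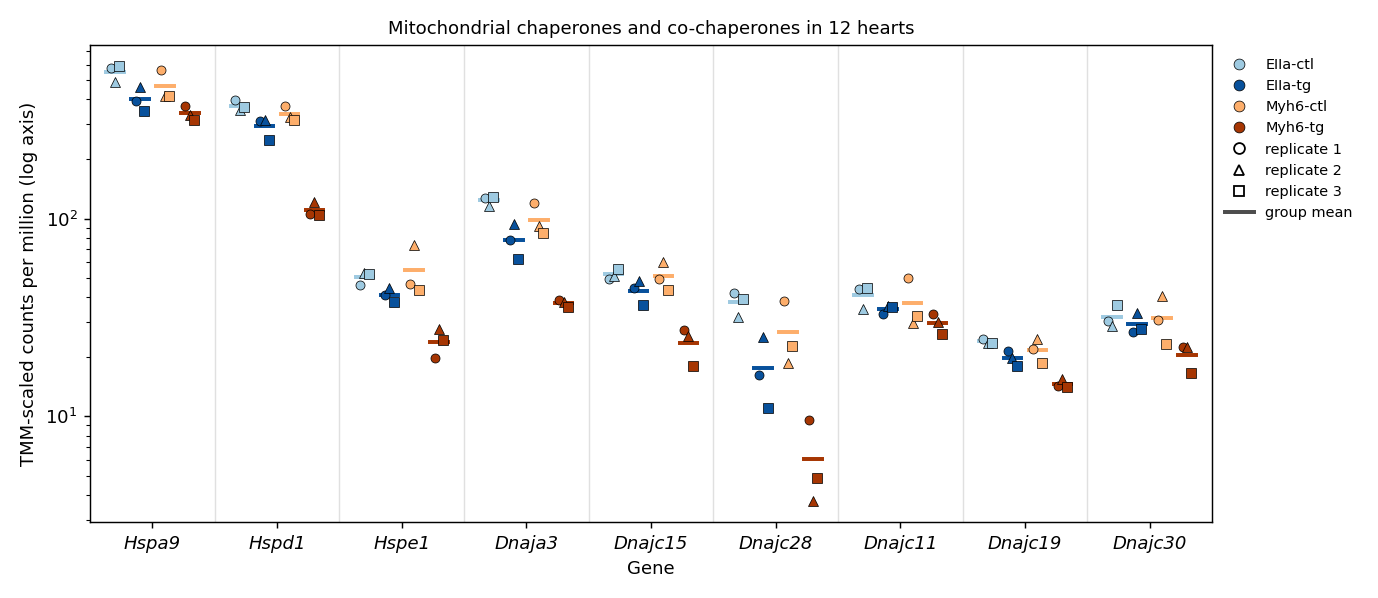
TMM-scaled CPM (log axis) of the 9 mitochondrial members in each of the 12 hearts. Colours mark the groups, symbols the replicate number and bars the group means; Hspd1 lies between 105 and 121 in Myh6-tg hearts and between 314 and 370 in Myh6-ctl hearts.

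Tested directly, the response of Hspd1 differed between the models by -1.26 ± 0.20 on the log2 scale (adjusted p = 0.00785), being more negative in the Myh6 model. It was the 1 member called of 82 tested in this comparison, beside 3.92% of 15929 genes, and it was called in every setting tried. For Hspe1 and Dnaja3 the difference between models was -0.90 ± 0.28 and -0.73 ± 0.24 and did not pass (adjusted p = 0.0972 and 0.113). DESeq2 called Hspe1, Dnajc15 and Dnajc25 in addition, at 6.67% of all genes.

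Outside the mitochondria, the DNAJ proteins moved in small numbers. None of 10 tested DNAJB genes was called in the EIIa model, and 3 rose (30.0%, beside 8.96% of all genes) and none fell in the Myh6 model. Dnajb6, which keeps polyglutamine proteins from aggregating, was at 66.6, 66.7 and 72.0 CPM in Myh6-ctl and 142, 106 and 98.9 CPM in Myh6-tg hearts (log2 fold change 0.76 ± 0.19, adjusted p = 0.0314). Its EIIa-tg hearts, at 67.0, 64.7 and 65.9 CPM, also lay above EIIa-ctl hearts at 58.5, 55.9 and 58.8 CPM, by 0.19 ± 0.08 without passing (adjusted p = 0.136). Gm5129 overlaps its exons on the other strand. Dnajb4, a cytosolic HSP40 of muscle, was at 119.9, 175 and 147 CPM in Myh6-ctl and 248, 228 and 235 CPM in Myh6-tg hearts (log2 fold change 0.69 ± 0.20, adjusted p = 0.0483). Dnajb11, the co-chaperone of BiP, rose by 0.59 ± 0.16 (adjusted p = 0.0366) and was the single called gene of the 12 endoplasmic reticulum members in that model, as Dnajc25 was in the EIIa model.

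The heat-inducible co-chaperones Dnajb1 and Dnaja1 had negative differences in both models, apart from Dnajb1 in the Myh6 model on the FPKM scale (0.05). Dnajb1, the main HSP40, was at 49.0, 37.5 and 29.7 CPM in the EIIa-ctl hearts and 22.1, 29.2 and 25.9 CPM in the EIIa-tg hearts, lower in all of them with a difference of -0.59 ± 0.19 (adjusted p = 0.0633), and overlapped in the Myh6 model (-0.37). DESeq2 called Dnajb1 lower in the EIIa model. Dnaja1 differed by -0.66 ± 0.30 in the Myh6 model (adjusted p = 0.166; 0.0297 with the replicate block) and by -0.32 in the EIIa model. Dnajb5 was lower in all Myh6-tg hearts than in all Myh6-ctl hearts and did not pass (-0.40 ± 0.16).

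Of 24 DNAJC genes tested, 1 rose and 2 fell in the EIIa model and 3 fell in the Myh6 model. That is 12.5% called in each, beside 17.0% and 18.3% of all genes. Dnajc25 rose in EIIa-tg hearts, from 20.7, 20.6 and 21.7 CPM to 32.6, 26.1 and 32.0 CPM (log2 fold change 0.52 ± 0.11, adjusted p = 0.0247), and differed by -0.41 ± 0.24 in the Myh6 model (adjusted p = 0.26). It shares exon bases with Gm20503 on the same strand. Dnajc27, a small GTPase with a J domain, fell in Myh6-tg hearts, from 14.0, 9.35 and 13.4 CPM to 3.95, 5.77 and 5.88 CPM (log2 fold change -1.24 ± 0.26, adjusted p = 0.0191). The remaining called members of the EIIa model, Dnajc7 (-0.31 ± 0.09, adjusted p = 0.0482) and Hspbap1 (0.80 ± 0.22, adjusted p = 0.0453), were named after their values were seen. The sign of the DNAJC median in the EIIa model, -0.18, turned to 0.03 on the FPKM scale.

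The cytosolic chaperonin CCT, which folds actin and tubulin, rose in part. Of 7 CCT genes tested in the EIIa model 1 rose, and of 6 in the Myh6 model 2 rose, with median log2 fold changes of 0.21 and 0.43. These shares are 14.3% and 33.3%, beside 8.65% and 8.96% of all genes higher. Cct8 rose in both. It was at 124, 129.9 and 123 CPM in the EIIa-ctl hearts and 152, 153 and 175 CPM in the EIIa-tg hearts (log2 fold change 0.34 ± 0.09, adjusted p = 0.041), and at 119, 165 and 123 CPM in Myh6-ctl and 193, 245 and 242 CPM in Myh6-tg hearts (log2 fold change 0.74 ± 0.21, adjusted p = 0.0452). The groups were apart in both models. Usp16 overlaps its exons on the other strand.

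Cct3 was at 103, 113 and 95.9 CPM in Myh6-ctl and 158, 171 and 159.6 CPM in Myh6-tg hearts (log2 fold change 0.65 ± 0.16, adjusted p = 0.0329), and its EIIa difference of 0.21 did not pass. The other subunits did not pass in either model: Cct2 differed by 0.28 and 0.54, Cct5 by 0.23 and 0.32, Cct7 by 0.13 and 0.09, and Cct4 by 0.13 and -0.08. DESeq2 called Cct2 higher in the EIIa model. In EIIa-ctl hearts these 6 subunits had mean levels of 45.0 to 59.4 FPKM. In Myh6-tg hearts their means ran from 68.4 FPKM for Cct7 to 118 FPKM for Cct2. These groups belong to different models, so the ranges are not a measure of change. On the FPKM scale the CCT median in the Myh6 model was 0.82, beside 0.34 over all genes. Cct6b and Cct8l1 were at 0 to 0.58 CPM.

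No BAG gene was called in either model by edgeR's quasi-likelihood test, of 6 tested, while on the FPKM scale limma called Bag3 in the EIIa model and Bag2, Bag3 and Bag5 in the Myh6 model. DESeq2 also called Bag3 in the EIIa model, and an edgeR fit of all 12 hearts called Bag3 and Bag5 in the Myh6 model. Bag3, the cardiac co-chaperone of Hspb8, was at 234, 188 and 225 CPM in the EIIa-ctl hearts and 294, 239 and 296 CPM in the EIIa-tg hearts, and at 204, 289 and 206 CPM in Myh6-ctl and 369, 331 and 316 CPM in Myh6-tg hearts. Every transgenic heart was above every control of its model, but the differences of 0.36 ± 0.13 and 0.54 ± 0.21 did not pass (adjusted p = 0.0836 and 0.116). Bag5 followed the same order at 0.15 and 0.44. Bag1, the most abundant BAG gene in EIIa-ctl hearts at 133 ± 5.61 FPKM (SD, n = 3), differed by -0.03 and -0.30. The differences of Bag2, Bag4 and Bag6, the last a chaperone for tail-anchored proteins, lay between -0.13 and 0.22. The replicate block changed none of these calls.

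**Figure D4:**
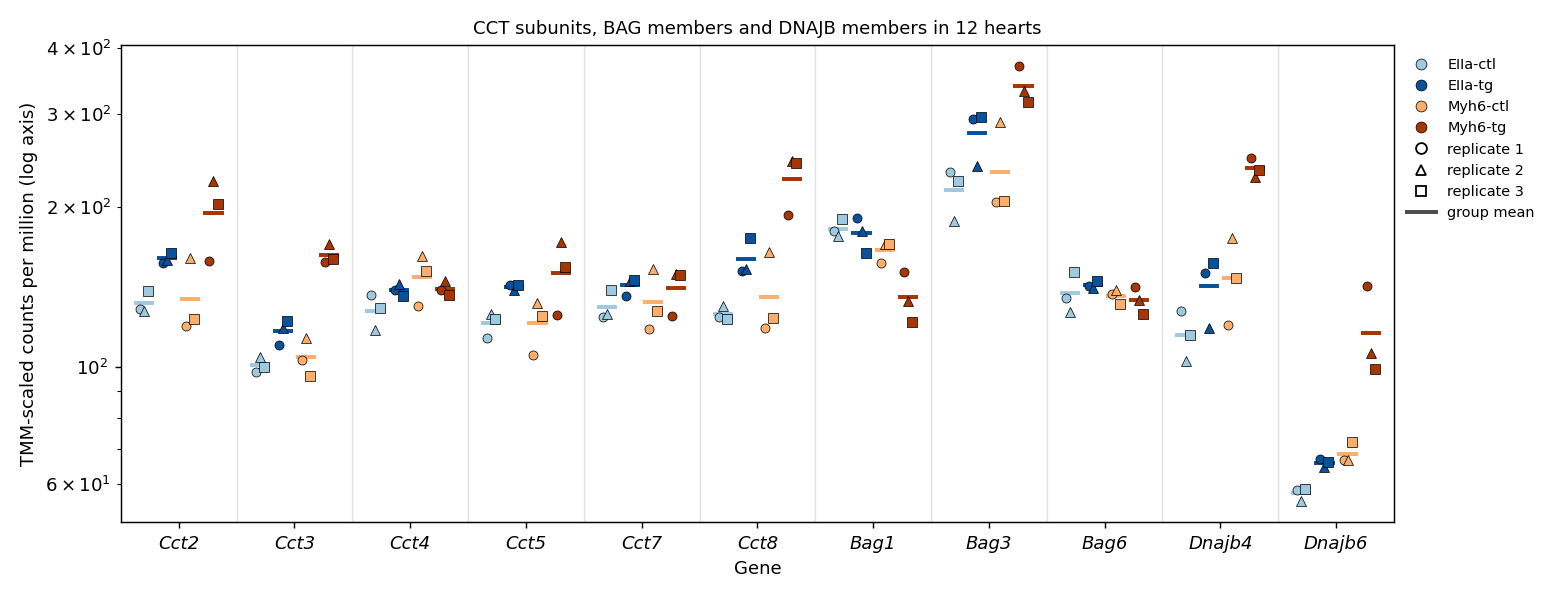
TMM-scaled CPM (log axis) of 6 CCT subunits, 3 BAG genes and 2 DNAJB genes in each of the 12 hearts. Colours mark the groups, symbols the replicate number and bars the group means; for Cct8 and Bag3 all 3 transgenic hearts lie above all 3 controls in both models, with Cct8 between 193 and 245 in Myh6-tg hearts.

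Across the families, 7 members were called in both models, Cct8, Hspa1l, Hspb1 and Hspb2 higher and Dnaja3, Dnajc28 and Hspa12a lower, and 0 were called in opposite directions. The matching counts over all genes were not made, so whether these are unusual for the members is not known. The models share no hearts. Over the 79 members tested in both, the log2 fold changes correlated with Pearson's r = 0.784 and Spearman's rho = 0.756, and 63 (79.7%) had the same sign. Over all 14649 genes the values were 0.508, 0.553 and 70.9%. These correlations run across genes, which are not independent replicates, and are a description. Dnajc25 and Hspb6 were the called members farthest into the quadrant of opposite signs.

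**Figure D5:**
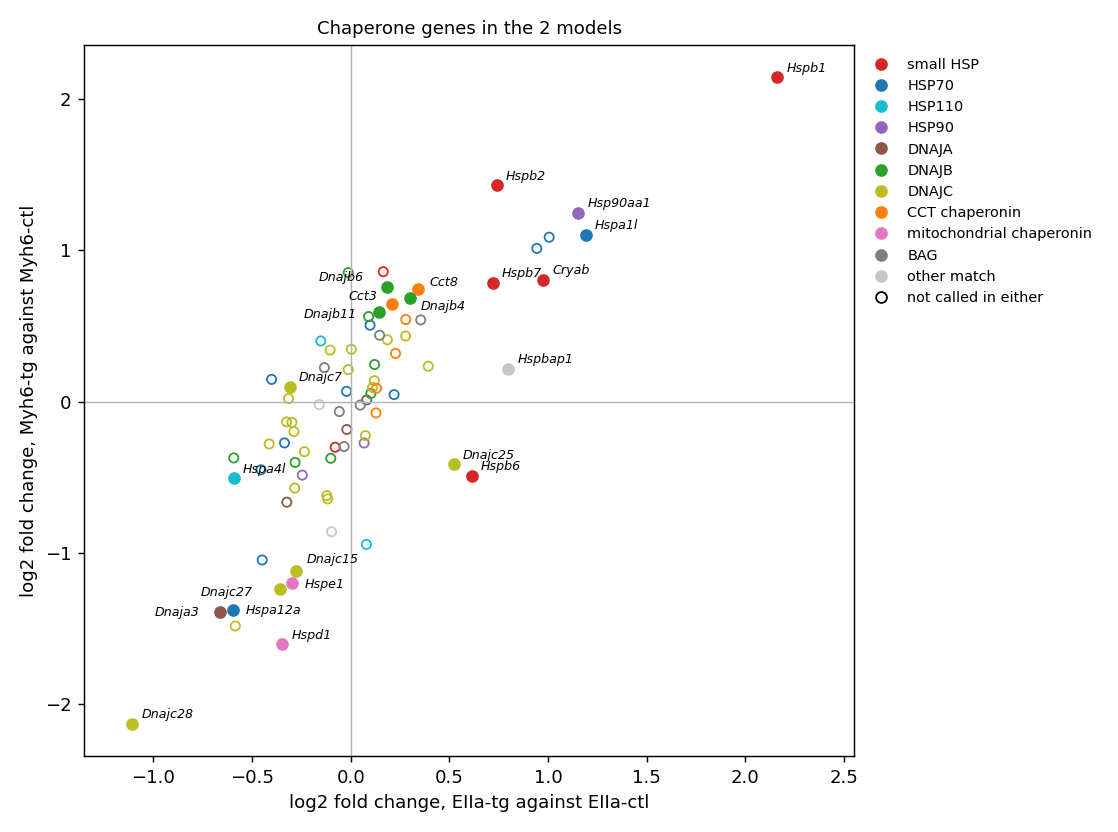
Log2 fold change of 79 members in the EIIa model (x axis) against the Myh6 model (y axis), coloured by family; filled points were called in at least 1 model and are named. Hspb1 lies at 2.16 and 2.14, Dnajc28 at -1.11 and -2.13, and Hspd1 at -0.35 and -1.61.

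Between the control groups, which differ in age, line, Cre and oil injections, 0 of 81 members were called, beside 0.0334% of 14990 genes. By unadjusted p under 0.05 there were 9, beside 1700 of 14990 genes. DESeq2 called 3, Hsp90aa1, Hspa1l and Hsph1, all higher in Myh6-ctl, beside 2.16% of all genes. Their differences were 0.99 ± 0.22, 0.90 ± 0.24 and 0.90 ± 0.20. Without Myh6-ctl replicate 1 the count was 1, Hsp90aa1.

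The 15 members that textbooks list as HSF1 targets were called 4 times in each model, 3 higher and 1 lower in EIIa-tg and 2 higher and 2 lower in Myh6-tg hearts. That is 26.7% of them, beside 17.0% of all genes in the EIIa model and 18.3% in the Myh6 model. The 15 had median log2 fold changes of 0.22 and 0.05. With the replicate block, the Myh6 count became 6 higher and 3 lower, beside 9.76% and 11.2% of all genes. Replicate 1 of both Myh6 groups was low for several of them, as shown above for Hspa1a and Hsp90aa1, and it was also the library with Y-linked reads; its part in the spread was not tested.

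Of the other genes of the pathway, the 7 heat-shock factors and regulators gave 1 higher in EIIa-tg and 1 higher and 2 lower in Myh6-tg hearts. Hsf2, a heat-shock factor of development that can pair with HSF1, was at 14.2, 14.3 and 11.8 CPM in the EIIa-ctl hearts and 25.1, 22.0 and 29.3 CPM in the EIIa-tg hearts (log2 fold change 0.92 ± 0.14, adjusted p = 0.016). It rose in Myh6-tg hearts too, by 1.18 ± 0.31 (adjusted p = 0.0353). The lower ones in Myh6-tg hearts were Hsf1 and Hikeshi, named after their values were seen. Hsf1, the main heat-shock factor, was at 35.5, 28.9 and 27.3 CPM in Myh6-ctl and 16.1, 17.8 and 17.4 CPM in Myh6-tg hearts (log2 fold change -0.84 ± 0.17, adjusted p = 0.0173).

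The 24 co-chaperones of HSP90 and HSP70 outside the name rule gave 2 higher and 3 lower in EIIa-tg hearts and 1 higher and 5 lower in Myh6-tg hearts. The shares called were 20.8% and 25.0%, beside 17.0% and 18.3% of all genes. The immunophilins Fkbp4 and Fkbp5, which compete for HSP90 in steroid receptor complexes, moved in opposite directions. Fkbp4 was at 389.5, 326 and 372 CPM in the EIIa-ctl hearts and 138, 225 and 116 CPM in the EIIa-tg hearts (log2 fold change -1.18 ± 0.23, adjusted p = 0.0208), and at 355, 239 and 217 CPM in Myh6-ctl and 33.1, 37.5 and 29.1 CPM in Myh6-tg hearts (log2 fold change -3.02 ± 0.25, adjusted p = 0.00136). Fkbp5, a glucocorticoid-inducible gene, was at 10.3, 13.1 and 8.34 CPM in the EIIa-ctl hearts and 48.5, 24.6 and 43.7 CPM in the EIIa-tg hearts (log2 fold change 1.87 ± 0.26, adjusted p = 0.0147). It stood at 16.7, 36.4 and 59.1 CPM in Myh6-ctl and 178, 152 and 167 CPM in Myh6-tg hearts (log2 fold change 2.15 ± 0.41, adjusted p = 0.0143). No group overlapped its control for either gene.

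Smyd1, a methyltransferase that works with HSP90 in myosin folding, fell in Myh6-tg hearts (-1.25 ± 0.23, adjusted p = 0.0119), as did Chordc1, an HSP90 partner (-0.99 ± 0.18, adjusted p = 0.0112). Of the 11 prefoldin and CCT partners, 2 rose in EIIa-tg hearts, among them the phosducin-like Pdcl3 (0.71 ± 0.15, adjusted p = 0.0227), and none was called in Myh6-tg hearts (Pdcl3 0.67 ± 0.22, adjusted p = 0.0748; 0.0343 under the block). Of the 10 organellar chaperones, none was called in EIIa-tg and 2 fell in Myh6-tg hearts, or 3 under the block, where Trap1 was added (-0.81, adjusted p = 0.0458). Among the 24 co-chaperones the block added the myosin chaperone Unc45b (-1.04, adjusted p = 0.0204), for 6 lower. Both were named after their values were seen.

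The cell type markers changed as well. In EIIa-tg hearts 2 of 8 cardiomyocyte markers fell, with a summed level of 17038 to 28626 CPM beside 32441 to 39906 CPM in EIIa-ctl, and all 5 tested macrophage and leukocyte markers rose, with a summed level of 268 to 364 CPM beside 140.4 to 207 CPM. In Myh6-tg hearts 4 of 6 fibroblast markers rose, at 2843 to 6574 CPM beside 1562 to 2002 CPM, with 2 of 6 higher in EIIa-tg hearts at 2032 to 2955 CPM beside 1176 to 1560 CPM. The Myh6 list had an exception in Lum, which differed by -0.79 (adjusted p = 0.198) and was lower under the replicate block (adjusted p = 0.0218). In Myh6-tg hearts none of 6 macrophage and leukocyte markers was called. Of 6 endothelial markers 3 fell in EIIa-tg and none was called in Myh6-tg hearts, where Emcn and Tie1 were lower under the block (adjusted p = 0.0352 and 0.0231). In EIIa-tg and Myh6-tg hearts, the smooth muscle list had 0 and 1 lower of 5, the red blood cell list 1 and 3 lower of 5, the skeletal muscle list 1 higher and 1 lower of 3 in each, and the adipocyte list none called. Under the block, the Myh6-tg counts became 0 lower for smooth muscle and 5 of 5 lower for red blood cells. Each marker had reads in at least 1 heart. The part of cell makeup in the chaperone values was not tested.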

How the data were processed

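RNA of 12 mouse hearts was sequenced from libraries made with a kit that does not mark strand. The extraction text names brain, while the tissue label and the cardiac genes say heart. The authors aligned the reads with HISAT2 2.0.4, assembled them with StringTie 2.2.1 and deposited raw counts per gene and, beside them, FPKM values per gene. The study's methods name GRCm38, while the submitters' processing notes list GRCm39 and mm10.

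The deposited counts were tested in R 4.3.3 with edgeR 4.0.16 (filterByExpr, TMM factors, quasi-likelihood test, Benjamini-Hochberg adjustment over all genes tested), with the 6 hearts of each comparison, or all 12 for the difference between models. Coordinates are from GENCODE M21, which matched all 89 members. Scripts used Python 3.11.15 and matplotlib 3.10.9, and were tested on simulated data.

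Members and gene lists were chosen with earlier results of these data known. Named were a list of core members, the 12 members with the lowest adjusted p of each comparison among those called, and the 4 such genes of the other pathway genes in each transgenic comparison. Exceptions are marked.

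The alternatives were DESeq2 1.42.0, other scaling factors, other filters, limma 3.58.1 on log2(FPKM + 1) and log2(FPKM + 0.1) of genes at 0.5 FPKM in 3 hearts, all hearts in 1 fit, removal of mitochondrial genes, leaving out each heart, a replicate block and, chosen after seeing the data, hearts 2 and 3 of each group. The deviations of same-numbered hearts correlated at 0.285, 0.184 and 0.173 in the Myh6 model and at 0.0602, -0.0704 and -0.0500 in the EIIa model. The block was therefore read as a possible pairing in the Myh6 model alone. That reading rests on these same expression values. The labels call the hearts biological replicates and state no pairing. Replicate 1 was also the heart with Y-linked reads in each group, and the part of that in these correlations was not tested. The main calls of both models used no block. Floors cover counting error only. The transgene and protein sequences were not analysed here.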

Additional observations from a re-analysis of the deposited data

Results flagged for a closer look

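Hspd1, the mitochondrial HSP60, responded differently in the models. Its difference in log2 fold change, Myh6 model minus EIIa model, was -1.26 ± 0.20 (adjusted p = 0.00785 by edgeR's quasi-likelihood test of the interaction over 12 hearts). All 3 transgenic hearts were below all 3 controls in each model. The models differ in age, Cre line and injections, which cannot be told apart from the model, and the Myh6 groups also differ in Esr1 reads. Leaving out each heart in turn gave differences of -1.37 to -1.19.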

How the results depend on the processing

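The number of members called depended on the setting. In the EIIa model, with 15 called, it was 1 with all 12 hearts in 1 fit, 25 on log2(FPKM + 1) and on log2(FPKM + 0.1), 0 on FPKM with no filter, 0 with hearts 2 and 3 of each group, 0 by the stricter rule and 0 to 27 with 1 heart left out. In the Myh6 model, with 15 called, it was 34 with all 12 hearts in 1 fit, 30 on log2(FPKM + 1), 29 on log2(FPKM + 0.1), 23 on FPKM with no filter, 2 by the stricter rule and 2 to 23 with 1 heart left out. For the difference between models, with 1 called, it was 4 by DESeq2, 2 with hearts 2 and 3 of each group, 3 under each FPKM setting and 1 to 4 with 1 heart left out. Between controls, with 0 called, it was 3 by DESeq2, 1 with hearts 2 and 3 of each group and 0 to 1 with 1 heart left out. All genes called moved with the setting too, from 2527 in the EIIa and 2805 in the Myh6 model. With all 12 hearts in 1 fit they were 227 and 5049, of 15929 genes. On log2(FPKM + 1) they were 3028 of 12681 and 4228 of 12947. On FPKM with no filter they were 1 of 19490 and 3393 of 20052. The cause was not tested. None of the called members was called in the opposite direction in these settings.

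With the replicate number as a block, 0 members were called in the EIIa model and 22 in the Myh6 model, including all 15. In that EIIa fit 29 of 80 members had an unadjusted p under 0.05, beside 4583 of 14908 genes. Replicate 1 was the heart with Y-linked reads in every group, so same-numbered hearts shared that trait in both models. Among the other pathway genes and cell type markers of the Myh6 model, the block added 3 and 5 calls and removed 1 marker, Myh11; in the EIIa model it left none of either called.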
